A study of Mus musculus with 4 samples.

Results

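The insulin-like growth factor (IGF) axis was followed through the nuclei of the prepubertal mouse right ventricle (RV) by 10 of the 27998 genes counted: the ligands Igf1 and Igf2, the noncoding RNA H19 that neighbours Igf2, the receptors Igf1r, Igf2r and Insr, and the binding proteins Igfbp3, Igfbp4, Igfbp5 and Igfbp7. The genes were chosen by name, and each had 1 entry in every library. The study asked how volume overload of the right ventricle (RVVO) changes the ventricle before puberty. All mice were wild type C57/BL6J, were operated on at postnatal day 7 (P7) and were taken at P21. RVVO mice had a fistula made from the abdominal aorta to the inferior vena cava, and sham mice had the same operation without the puncture. Nuclei of flash-frozen tissue were sequenced in 2 sham and 2 RVVO libraries, and no source used here says how many mice a library stands for. The methods also describe cyclosporin A injections, and no library here is labelled with that drug.

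IGF1 and IGF2 are secreted hormones that act through the IGF1 receptor, a tyrosine kinase closely related to the insulin receptor, while the IGF2 receptor carries IGF2 into the cell for breakdown. Most extracellular IGF is bound by IGF binding proteins, which hold the ligand in the tissue or release it after a protease has cut them. Igf2 and H19 are imprinted neighbours that are high in the fetus and are turned down in most tissues after birth, and in the heart the axis is known for its part in cardiomyocyte (CM) growth.

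The libraries held 53090 barcodes, of which 48428 passed as nuclei by the filters (at least 200 genes and under 10% mitochondrial UMIs), with 8247 to 14564 kept in each library. Median depth was 2434 and 2265 unique molecules (UMIs) per kept nucleus in the sham libraries and 4823 and 3442 in the RVVO libraries. Pairs of libraries shared 25 to 60 barcodes. Nuclei were placed by raw UMIs of marker genes, none of them an axis gene, which gave 15777 CMs, 12201 endothelial cells (ECs), 5326 fibroblasts, 1991 pericytes, 1221 macrophages and 591 epicardial nuclei besides smaller groups. Each of these 6 lineages had 2 to 5 of its own markers and none of another lineage among its top 10 genes by fold. The nuclei were placed by those same markers, so these counts follow largely from the placing and are no check of the lineages. A further 2728 nuclei with markers of several lineages were left out as possible doublets, and 7868 could not be placed. Levels below are CPM, the UMIs of a gene summed over the nuclei of a lineage and scaled by all UMIs of those nuclei, and are given per library in the order sham 1, sham 2, RVVO 1, RVVO 2. CPM was not divided by gene length, so levels are compared between lineages and not between genes. Over all nuclei, Xist was at 1498 and 1510 CPM in the sham libraries and at 0.826 and 0.591 CPM in the RVVO libraries, while the Y-linked Uty and Ddx3y summed to 0.451, 0.247, 424 and 436 CPM, so the sex of the mice changed together with the operation and the 2 cannot be told apart.

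Igf2 and H19 lie on the minus strand of chromosome 7 (GRCm38, Igf2 at 142650766 to 142666816 and H19 at 142575529 to 142578143), with 72622 bases between them. Each gene holds a miRNA hairpin, and the 4 mature miRNAs are shown because they are the small products of the imprinted pair on which the endothelial results turn. They were read from RefSeq (GRCm38.p6), written 5′ to 3′ with the seed (bases 2 to 8) in capitals.
mmu-miR-675-5p (within H19, chr7:142577112-142577133, minus strand): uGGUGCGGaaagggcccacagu
mmu-miR-675-3p (within H19, chr7:142577078-142577099, minus strand): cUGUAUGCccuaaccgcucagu
mmu-miR-483-5p (within Igf2, chr7:142654968-142654989, minus strand): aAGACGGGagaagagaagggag
mmu-miR-483-3p (within Igf2, chr7:142654932-142654952, minus strand): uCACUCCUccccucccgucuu
No 2 of these seeds were the same. Mature miRNAs were not measured here, and neither hairpin had an entry of its own in the count tables, so only the host genes carry values.

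**Figure D1:**
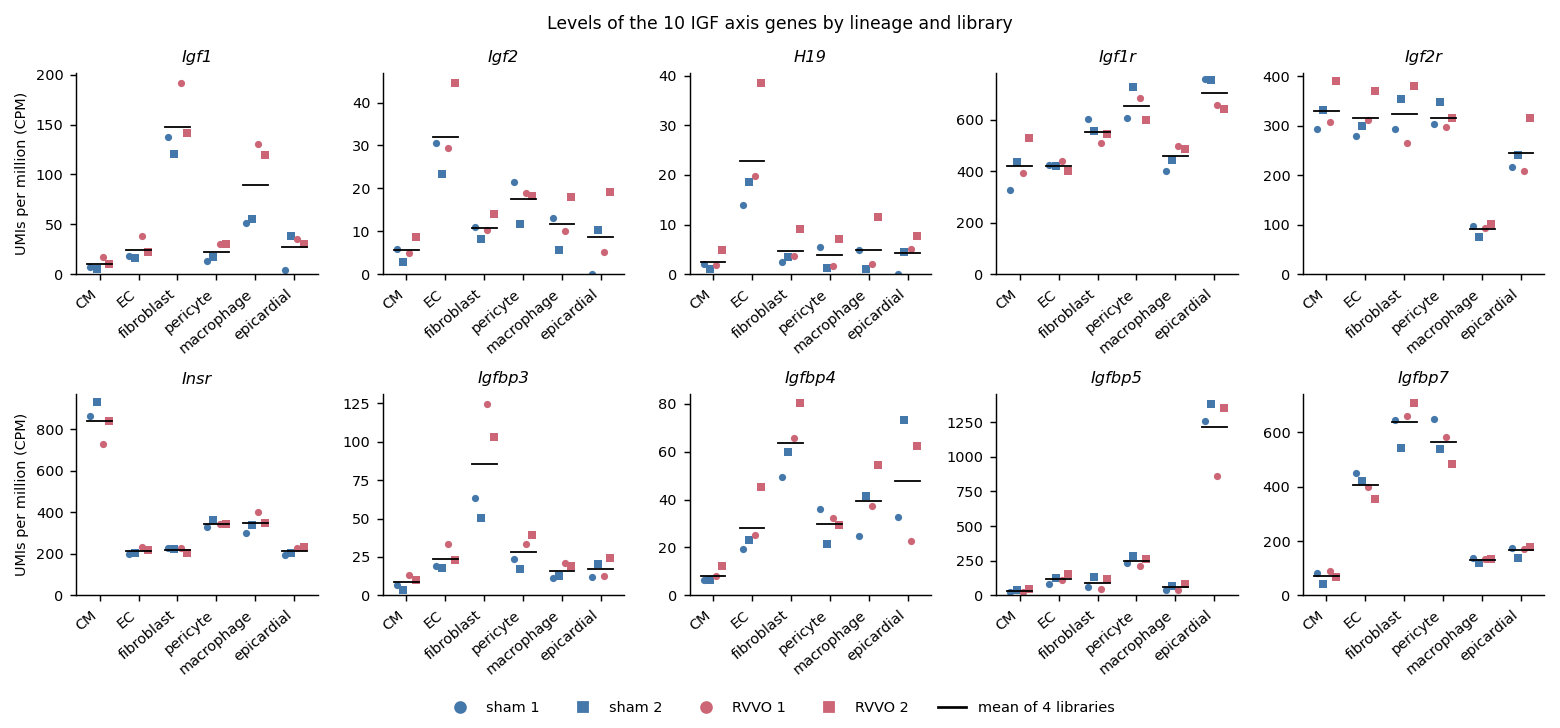
Level of each of the 10 IGF axis genes (CPM, linear axis from 0, a scale of its own in each panel) in 6 lineages. Each point is 1 library (blue sham, red RVVO, circle replicate 1, square replicate 2) and the line is the mean of 4 libraries. Igf1 and Igfbp3 stood highest in fibroblasts, Igf2 and H19 in ECs, Insr in CMs and Igfbp5 in epicardial nuclei.

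The lineage of each gene was tested by setting one of the 5 main lineages (CMs, ECs, fibroblasts, pericytes, macrophages) against the mean of the other 4 within libraries, with edgeR's quasi-likelihood test over 14139 genes, Benjamini-Hochberg adjustment and a threshold of 0.05. Every edgeR adjusted p below comes from a quasi-likelihood fit over all genes tested. Between lineages the library was a block, so those p-values measure only the spread of lineage differences across these 4 libraries. For RVVO against sham they measure only the spread between libraries of a group. Both spreads may be technical. The fits scaled each sum by TMM factors, and CPM was scaled by all UMIs. Fitted differences between lineages can therefore depart from the CPM in size and in sign. Most genes differed between lineages, so each count of axis genes is read against the share of all genes called.

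Among the 6 lineages, Igf1, the main growth-promoting ligand after birth (chromosome 10, 87858265 to 87937042), was highest in fibroblasts at 138, 121, 192 and 141 CPM. Macrophages were next highest at 51.1, 55.9, 131 and 120 CPM. Fibroblasts exceeded macrophages in all 4 libraries, although the ranges overlapped. The rest of the 6 lay below, with epicardial nuclei at 4.09 to 38.1, ECs at 16.6 to 37.8, pericytes at 12.9 to 30.4 and CMs at 5.59 to 17.4 CPM. Of the smaller groups, lymphoid nuclei (as few as 12 in a library) had 22.6 to 110 CPM. Adipocyte nuclei, absent from sham 1 and only 2 in RVVO 1, had 31.0 to 205 CPM. Igf1 was 2.36 (SE 0.104) log2 units higher in fibroblasts (edgeR adjusted p = 1.19e-14) and 1.44 (SE 0.141) higher in macrophages (edgeR adjusted p = 8.96e-09) than in the mean of the other lineages. By number, fibroblasts held 31.0 to 38.2% of a library's Igf1 UMIs and macrophages 2.73 to 7.71%.

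Free RNA in droplets gives every nucleus some UMIs of abundant genes, so Igf1 was also counted per 1000 UMIs of the 10 fibroblast markers in the same nuclei. Fibroblasts gave 19.7, 16.4, 26.2 and 16.5 Igf1 UMIs per 1000 marker UMIs. CMs gave 14.0 to 26.4 and ECs 15.6 to 28.5 against 16.4 to 26.2 in the fibroblasts themselves, and pericytes gave 7.92 to 15.2. Macrophages gave 72.1, 76.9, 112.8 and 92.3, above every value of the other 4 lineages. Fibroblasts were placed by these same markers, and nuclei with markers of several lineages were left out. The placing itself thus lowers the ratio in fibroblasts beside the other lineages. The part of free RNA in the Igf1 UMIs of any of these lineages was not tested. With each nucleus thinned to 1000 UMIs, 10.2, 8.50, 14.2 and 10.9% of fibroblasts had an Igf1 UMI (21.2, 15.9, 35.2 and 24.9% without thinning), against 5.51, 5.72, 12.4 and 9.74% of macrophages and 0.362 to 1.12% of CMs.

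**Figure D2:**
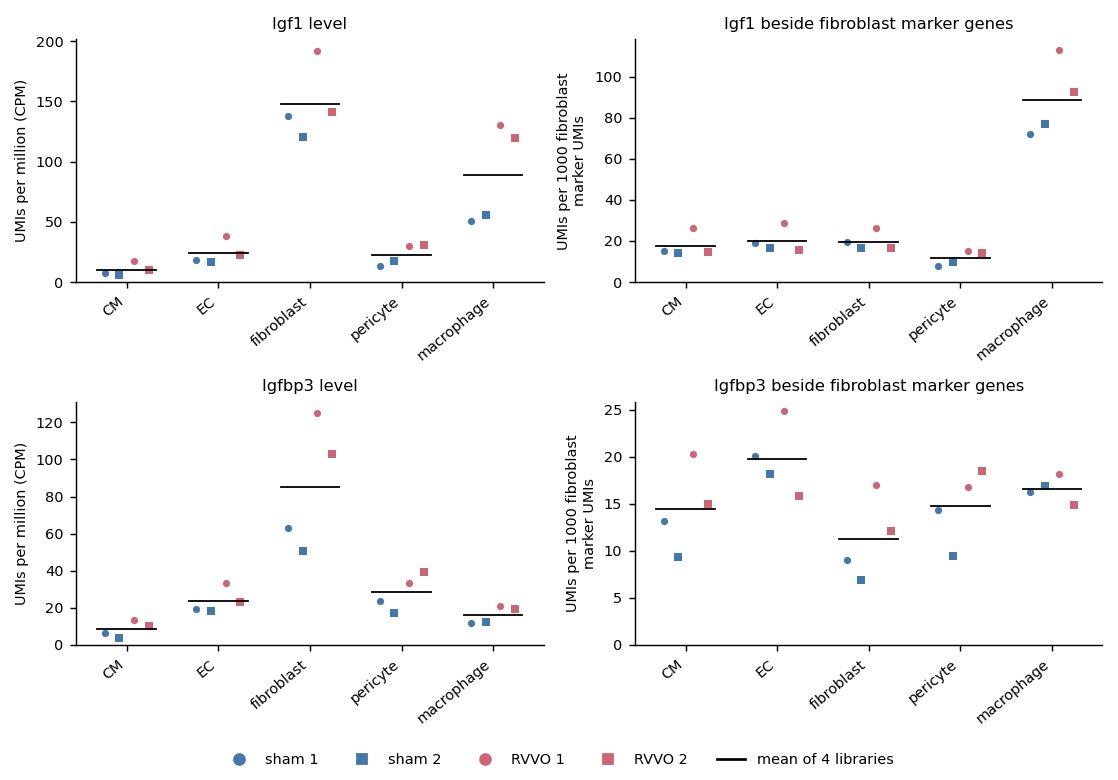
Igf1 (top) and Igfbp3 (bottom) in 5 lineages, as CPM (left) and as UMIs per 1000 UMIs of the 10 fibroblast marker genes in the same nuclei (right), on linear axes from 0. Points are libraries (blue sham, red RVVO) and lines are means of 4 libraries. For Igf1 the macrophages stood at 72.1 to 112.8 on the right and the other lineages at 28.5 or below, while for Igfbp3 all 5 lineages lay between 6.86 and 24.9. Fibroblasts were placed by these same 10 genes, which lowers their values on the right.

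Among the main lineages Igf2, the fetal growth ligand, was highest in ECs at 30.5, 23.4, 29.4 and 44.6 CPM. Pericytes followed at 11.7 to 21.5 CPM, a range that did not overlap that of the ECs, and CMs had 2.79 to 8.61 CPM. The EC level was 1.52 (SE 0.101) log2 units above the other lineages (edgeR adjusted p = 1.23e-11). Pericytes exceeded the mean of the other lineages by 0.50 log2 units (edgeR adjusted p = 0.0188), a call lost without sham 1 (0.40, edgeR adjusted p = 0.157) or without RVVO 1 (0.38, edgeR adjusted p = 0.157). ECs held 33.9 to 46.1% of the Igf2 UMIs of a library.

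Among the main lineages H19, a maternally expressed noncoding RNA, was likewise highest in ECs at 14.0, 18.7, 19.8 and 38.6 CPM. CMs had 0.991 to 4.78 CPM, and in the sham 2 library the pericytes had 2 UMIs and the macrophages 1. The EC level was 2.52 (SE 0.169) log2 units above the other lineages (edgeR adjusted p = 1.35e-11), and ECs held 37.7 to 58.4% of H19 UMIs. Erythroid nuclei had 0 to 150 CPM, on 0, 10, 16 and 0 UMIs. Nuclei that could not be placed had 8.56 to 28.5 CPM and held 21.1 to 23.1% of H19 UMIs.

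Within the endothelium the imprinted pair was highest in endocardial nuclei. Endocardial nuclei, the lining of the ventricular cavity, were placed by 7 markers, among them Npr3, Tmem108 and Smoc1. They numbered 636 of the 12201 ECs, with 130 to 222 in a library. Capillary nuclei numbered 4269. Of the other ECs, 5821 could be placed in no endothelial class and 874 had markers of several classes. Igf2 reached 162, 136, 109 and 197 CPM in endocardial nuclei against 25.2, 11.4, 23.3 and 20.8 CPM in capillary nuclei. H19 reached 126, 235, 127 and 214 CPM against 5.44, 2.36, 9.32 and 5.41 CPM. Every endocardial value lay above every capillary value for both genes, whichever operation the mice had.

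Over 10338 genes, 34.1% differed between endocardial and capillary nuclei, 16.5% of them upward and 17.6% downward as shares of the genes tested. Of the 10 axis genes 8 were called, 7 higher in endocardial nuclei and 1 lower. H19 was 4.92 (SE 0.243) log2 units higher (edgeR adjusted p = 1.89e-14) and Igf2 2.89 (SE 0.174) higher (edgeR adjusted p = 8.32e-13). The binding proteins Igfbp4 and Igfbp5 were higher by 2.25 (SE 0.187) and 1.67 (SE 0.117), and all 3 receptors were higher, Igf2r by 1.36 (SE 0.0942), Insr by 0.86 (SE 0.101) and Igf1r by 0.61 (SE 0.0867). Igfbp7 alone was lower, by -1.41 (SE 0.113) log2 units (edgeR adjusted p = 2.12e-10). Igf1 and Igfbp3 were not called.

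Endocardial nuclei made up 3.69, 3.24, 7.28 and 10.1% of ECs. They held 20.7, 24.8, 26.0 and 38.7% of the Igf2 UMIs of ECs and 34.8, 53.7, 45.2 and 48.6% of the H19 UMIs. ECs placed in no class made up 45.8, 57.3, 40.1 and 39.1% of ECs. ECs with markers of several classes held 24.7, 25.4, 23.9 and 30.2% of the H19 UMIs of ECs. The part of depth and of placing in the endocardial share was not tested. After thinning to 1000 UMIs, an H19 UMI was found in 11.1, 14.7, 11.5 and 13.1% of endocardial nuclei (25 to 29.7% unthinned) and in 0.0841 to 1.23% of capillary nuclei (0.563 to 2.15% unthinned). Endocardial nuclei were deeper in each library, with median UMIs of 2666, 2579.5, 3865 and 2829 against 2255, 2011, 3014.5 and 2446 in capillary nuclei. For Igf2 the thinned shares were 10.0 to 15.3% and 1.51 to 2.74%. The capillary shares of H19 overlapped the 0.115 to 0.523% found in CMs, and the part of free RNA in them was not tested. Counted per 1000 UMIs of the endocardial markers in the same nuclei, H19 gave 17.4 to 35.4 in endocardial, 17.9 to 54.6 in capillary and 8.79 to 33.7 in CM nuclei, ranges that overlapped. Igf2 gave 14.9 to 29.0 in endocardial nuclei and 86.7 to 186 in capillary nuclei, and the source of the capillary Igf2 UMIs was not tested. Endocardial nuclei were placed by these same markers, so the placing itself lowers their ratios beside those of the other nuclei.

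Igf2 and H19 were often counted in the same endocardial nuclei. Among nuclei with an Igf2 UMI, 39.1, 46.7, 36.6 and 41.4% also had an H19 UMI, against 18.6, 18.9, 21.4 and 24.3% of the endocardial nuclei without one. All 4 libraries gave the same order. The Igf2 nuclei were also the deeper ones in each library, with median UMIs of 2738, 3236.5, 4256 and 2841.5 against 2496.5, 2400, 3659 and 2797.5, and the part of depth in the difference was not tested.

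**Figure D3:**
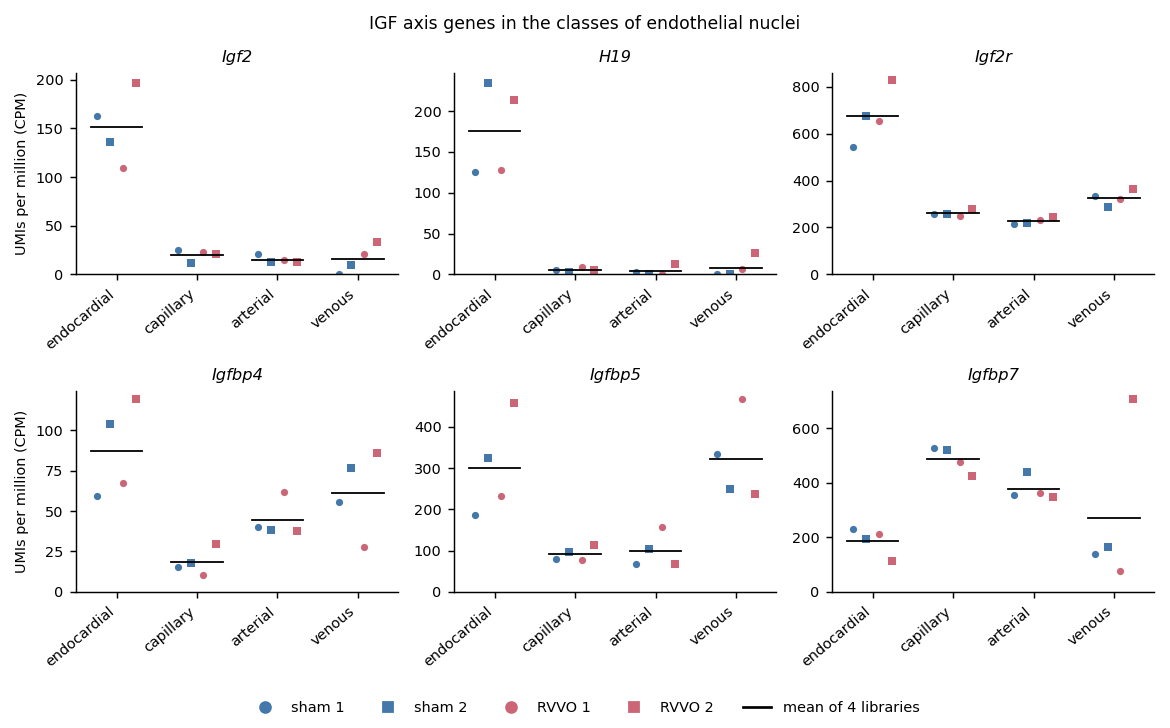
Levels of 6 axis genes (CPM, linear axes from 0) in endocardial, capillary, arterial and venous nuclei. Points are libraries (blue sham, red RVVO) and lines are means of 4 libraries. Igf2, H19 and Igf2r were higher in every endocardial library than in any library of the other 3 classes, while Igfbp7 was lower in endocardial than in capillary nuclei.

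Of the receptors, Igf1r (chromosome 7, 67952827 to 68233668) was spread over all lineages. Epicardial nuclei had 760, 757, 660 and 641 CPM, pericytes 600.5 to 730, fibroblasts 509 to 604, macrophages 402 to 500, CMs 328 to 532 and ECs 402 to 438.5 CPM. The ranges of neighbouring lineages in that order overlapped except between fibroblasts and macrophages. Pericytes exceeded the other main lineages by 0.45 log2 units (SE 0.0907, edgeR adjusted p = 0.000371) and ECs were lower by -0.36 (SE 0.0923, edgeR adjusted p = 0.0022). Macrophages were lower by -0.30 (edgeR adjusted p = 0.0131), which was lost without sham 2 (edgeR adjusted p = 0.0835). The CM difference of 0.18 (SE 0.0887) was not called (edgeR adjusted p = 0.0619), although it was called without sham 1 (0.28, edgeR adjusted p = 0.00886) or without RVVO 1 (0.26, edgeR adjusted p = 0.0283). Its sign rests on the TMM scale. In CPM the CM mean of 422.5 was near the 421.5 of ECs. It lay below the means of macrophages (458.3), fibroblasts (553.8) and pericytes (655.7). The small group of smooth muscle nuclei had 730 to 1246 CPM from as few as 14 nuclei in a library.

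Insr, the insulin receptor (chromosome 8, 3122061 to 3279617), was highest in CMs. They had 865, 930, 728 and 836 CPM, macrophages 300 to 402, pericytes 326 to 364, and fibroblasts and ECs 201 to 233 CPM. The CM range overlapped that of no other main lineage. The difference was 2.10 log2 units (SE 0.0674, edgeR adjusted p = 6.47e-18), and CMs held 72.7 to 79.7% of all Insr UMIs. At 1000 UMIs per nucleus 54.4, 55.3, 49.4 and 53.8% of CMs had an Insr UMI (86.0, 86.2, 95 and 92.0% unthinned), against 15.3 to 16.7% of ECs. Fibroblasts and ECs were lower than the other lineages by -0.98 and -0.92 log2 units (edgeR adjusted p = 8.62e-10 and 1.7e-09). Within the endothelium the few venous nuclei had 528 to 900.5 CPM and capillary nuclei 141 to 154.

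Igf2r, the receptor that removes IGF2 (chromosome 17, 12682406 to 12769664), was marked mainly by where it was low. Macrophages had 97.2, 74.8, 93.4 and 102 CPM, and CMs, fibroblasts, pericytes and ECs had 266 to 390 CPM. Macrophages were lower by -1.97 (SE 0.0966) log2 units (edgeR adjusted p = 4.89e-14), and an Igf2r UMI was found in 5.05 to 7.20% of macrophages against 23.5 to 32.1% of CMs after thinning. Endocardial nuclei were the high end at 542, 675, 655 and 827 CPM, against 251 to 277 CPM in capillary nuclei.

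The Igf2r values may carry a limit of counting. The imprinted noncoding RNA Airn runs across Igf2r on the other strand, and no source used here says whether counting used strand. Whether reads of Airn entered the Igf2r counts where the genes overlap was not tested. Airn had the 461396 UMIs of an abundant transcript and was likewise low in macrophages and high in endocardial nuclei, with 403 to 716 CPM in macrophages, 1579 to 1769 in capillary nuclei and 4089 to 5475 in endocardial nuclei. Genes on the other strand also overlap Igf1 (Igf1os), Igf2 (Igf2os, 85 UMIs in all), Insr (Gm16180) and Igfbp7 (Polr2b and Gm34648), and no counted gene overlaps the other 5 members.

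Of the binding proteins, Igfbp3, the main carrier of IGF in plasma (chromosome 11, 7206086 to 7213923), was highest in fibroblasts at 63.3, 50.4, 125 and 103 CPM. Pericytes had 17.0 to 39.5 CPM and CMs 3.74 to 13.4, and the fibroblast range lay above all of them. The fibroblast difference was 2.11 (SE 0.0967) log2 units (edgeR adjusted p = 2.1e-14). Beside fibroblast markers, Igfbp3 gave 6.86 to 17.1 UMIs per 1000 in fibroblasts, 9.36 to 20.3 in CMs, 15.9 to 24.9 in ECs, 9.47 to 18.5 in pericytes and 14.9 to 18.2 in macrophages. The CMs, ECs and macrophages exceeded the fibroblasts in each of the 4 libraries on this scale. Fibroblasts were placed by these same markers, so the placing itself lowers their ratio and the order is no result about Igfbp3. Capillary nuclei gave 20.4 to 26.8, a range above that of the fibroblasts. The part of free RNA was not tested.

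Igfbp4, which holds IGF until the protease pappalysin cuts it (chromosome 11, 99041244 to 99054392), was at 49.5, 59.8, 65.8 and 80.3 CPM in fibroblasts and at 59.5, 104, 67.3 and 119 CPM in endocardial nuclei. Capillary nuclei had 10.2 to 29.5 CPM and CMs 6.44 to 12.3. Fibroblasts exceeded the other lineages by 1.30 (SE 0.108) log2 units (edgeR adjusted p = 7.49e-10). The macrophage excess of 0.46 (edgeR adjusted p = 0.0216) was lost without sham 2 (0.36, edgeR adjusted p = 0.132), without RVVO 1 (0.49, edgeR adjusted p = 0.0508) and without RVVO 2 (0.42, edgeR adjusted p = 0.0657).

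Igfbp5, a binding protein of the extracellular matrix (chromosome 1, 72857932 to 72874884), was by far highest in epicardial nuclei, the outer lining of the heart, at 1255, 1382, 863 and 1350 CPM. Pericytes came next at 211 to 286 and ECs at 80.3 to 157 CPM, and neither step in that order overlapped. Pericytes exceeded the other main lineages by 1.89 (SE 0.113) log2 units (edgeR adjusted p = 3.43e-12). Epicardial nuclei, of which there were 65, 214, 82 and 230, entered no fit. They held 8.49 to 14.2% of a library's Igfbp5 UMIs, and 50.8 to 63.0% of them had an Igfbp5 UMI at 1000 UMIs, against 2.96 to 4.97% of CMs. The nuclei left out for markers of several lineages held more, at 15.6, 23.4, 17.5 and 32.8% of a library's Igfbp5 UMIs. In fibroblasts Igfbp5 was at 58.5, 133, 48.3 and 120 CPM, high in the replicate 2 libraries of both groups, and the 7 epicardial markers in the same nuclei summed to 55.6, 101.5, 46.9 and 128 CPM. The part of epicardial RNA in that split was not tested.

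Igfbp7, a binding protein of vessel walls with low affinity for IGF (chromosome 5, 77349240 to 77408041), was shared by the cells in and around the vessels. Fibroblasts had 647, 541, 660 and 707 CPM, pericytes 484 to 648.5, ECs 354 to 449 and smooth muscle nuclei 898 to 1065, whereas CMs had 42.0 to 91.0 CPM. Fibroblasts, pericytes and ECs exceeded the other lineages by 1.40, 1.29 and 0.70 log2 units (edgeR adjusted p = 8.81e-12, 1.3e-10 and 1.21e-06). Capillary nuclei had 526, 519, 474 and 426 CPM and endocardial nuclei 231, 195, 211 and 114, the reverse of the order seen for Igfbp4 and Igfbp5.

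**Figure D4:**
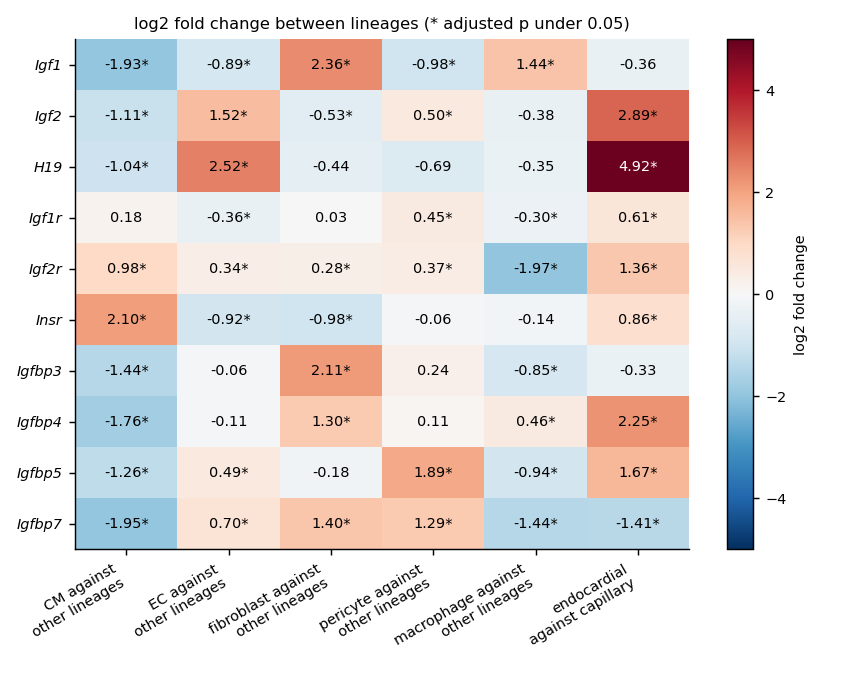
Difference in level of each axis gene (log2 fold change, colour and printed value) between a lineage and the mean of the other 4 main lineages, and between endocardial and capillary nuclei. A star marks an edgeR adjusted p under 0.05. H19 showed the widest difference, 4.92 log2 units, between endocardial and capillary nuclei.

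Counted together, 9 of the 10 axis genes differed between CMs and the other lineages, where 78.6% of all genes did. Only Insr and Igf2r were higher in CMs (35.9% of all genes were higher) and 7 were lower (42.8% were lower). In ECs 8 were called against 56.9% of all genes, with 5 higher (H19, Igf2, Igfbp7, Igfbp5 and Igf2r, background 24.3%) and 3 lower (Igf1, Insr and Igf1r, background 32.6%). In fibroblasts 7 were called against 51.6%, with 5 higher (Igf1, Igfbp3, Igfbp7, Igfbp4 and Igf2r, background 23.6%) and 2 lower (Insr and Igf2, background 28.0%). Pericytes had 6 called against 39.6%, with 5 higher (Igfbp5, Igfbp7, Igf2, Igf1r and Igf2r, background 19.1%) and 1 lower (Igf1, background 20.5%). Macrophages had 7 called against 50.1%, with 2 higher (Igf1 and Igfbp4, background 23.2%) and 5 lower (Igf2r, Igfbp7, Igfbp5, Igfbp3 and Igf1r, background 26.9%). Igf2r counts as higher in CMs, ECs, fibroblasts and pericytes alike, at overlapping levels with means of 330.5, 315.0, 322.9 and 315.5 CPM. Each was set against a mean that holds the macrophages, at 92.0 CPM, so these calls are not separate gains.

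The genes around the axis were taken from 5 lists of 60 genes (Grb10 stood on 2 of them), 59 of which were counted, and 49 could be tested between lineages. Each count is read against the same shares of all genes as the axis genes. In CMs 44 were called, 22 higher and 22 lower, where 78.6% of all genes were called, 35.9% higher and 42.8% lower. The growth hormone path, which drives Igf1 in liver, had all 7 of its genes called in CMs, 5 higher and 2 lower beside those same shares, with a median of 1.12 log2 units where all genes had -0.10. Cish, a feedback inhibitor of that path, was higher by 2.47 (SE 0.0831) and the growth hormone receptor Ghr by 1.35 (SE 0.0854), while the inhibitor Socs3 was lower by -1.87. In the insulin signal path 11 genes were higher and 11 lower in CMs. Those higher included Grb14, an adaptor that binds the insulin receptor (2.98, SE 0.0665, edgeR adjusted p = 8.53e-21), and Irs1, the main receptor substrate (2.07, SE 0.0772).

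ECs had 41 of the 49 genes called, 18 higher and 23 lower, against 56.9% of all genes, 24.3% higher and 32.6% lower. The PI3 kinase subunits Pik3r3 and Pik3cb were higher by 2.29 and 2.03 log2 units (edgeR adjusted p = 3.29e-15 and 3.18e-15) and Irs1 was lower by -1.60. The imprinted growth regulator Plagl1 was higher by 1.74 in ECs, and within them it was higher by 5.30 (SE 0.166, edgeR adjusted p = 2.42e-18) in endocardial than in capillary nuclei. Mest, another imprinted gene, was lower by -1.08 in endocardial nuclei. Plagl1 had 265, 245, 271 and 276 CPM in endocardial nuclei and 4.76 to 10.8 CPM in capillary nuclei. Of 45 genes tested between these classes, 23 were called, 14 higher and 9 lower in endocardial nuclei, against 34.1% of all genes, 16.5% higher and 17.6% lower. DESeq2 called 13 of the 45, and 2415 of all 10338 genes where edgeR called 3525. The stanniocalcin Stc2, an inhibitor of the proteases that cut Igfbp4, was higher by 3.56 and the Igf2 mRNA binding protein Igf2bp2 by 2.09, and Pik3r3 was lower by -2.02.

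Fibroblasts had 35 genes called, 21 higher and 14 lower, against 51.6% of all genes, 23.6% higher and 28.0% lower. All 5 tested genes of the list of other binding proteins and their proteases were called, 4 of them higher, with a median of 1.08 log2 units against -0.05 for all genes. Pappa, the protease that cuts Igfbp4, was higher by 3.07 (SE 0.14, edgeR adjusted p = 1.97e-14) at 105, 114, 124 and 186 CPM, where CMs had 6.22 to 12.1 CPM. Its inhibitor Stc2 was higher in the same nuclei by 2.51 (SE 0.157). The imprinted noncoding RNA Meg3 was higher by 2.64 and Ghr by 1.03. Of the 12 imprinted genes tested, 9 were higher and 1 lower in fibroblasts, with a median of 0.80.

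Pericytes had 29 genes called, 16 higher and 13 lower, against 39.6% of all genes, 19.1% higher and 20.5% lower. The serine protease Htra1 was higher by 1.04 (SE 0.128, edgeR adjusted p = 6.79e-07) and Stc2 was lower by -1.83 (SE 0.338, edgeR adjusted p = 0.00014). Macrophages had 31 called, 6 higher and 25 lower, against 50.1% of all genes, 23.2% higher and 26.9% lower. None of the 12 imprinted genes was higher in macrophages and 11 were lower, with a median of -1.20 log2 units against -0.11 for all genes, among them Airn (-2.31), Peg3 (-1.97) and Grb10 (-1.80). Ghr was also lower, at 191 to 296 CPM in macrophages and 1081 to 1290 CPM in fibroblasts (edgeR adjusted p = 7.86e-13 for macrophages). Igf2bp3, another Igf2 mRNA binding protein, was higher by 2.52 (SE 0.119, edgeR adjusted p = 2.64e-14).

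The genes most like each member across 6 lineages and 4 libraries (24 sums that share libraries and depth, 14686 genes, Pearson r of log2(CPM + 1), a description) were named by a fixed rule. For Igf1 they were Wee1 (0.932), Ust (0.91) and Rbm6 (0.905), and for Igf2 Rhoc (0.92), Gpr182 and Tspan2. Igf2r was closest to Airn (0.949) and Yap1 (0.937), and Insr to Filip1l (0.95), Lrrfip2 and Cpeb4. Igfbp3 was closest to Gsn (0.932), Ccdc80 and Col6a3, Igfbp7 to Rhoj (0.962), Pkd2 and Nid1, and Igfbp5 to Aplp1 (0.942), Pawr and Prss23. The nearest genes were Rap2a (0.939), Tram1 and Ecm1 for Igfbp4, Gpc3 (0.894), Tbx18 and Gm14582 for Igf1r, and 9630028H03Rik (0.908), Ahsg and Nrxn3 for H19.

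RVVO was then set against sham within each lineage. No axis gene was called in any lineage by edgeR. The tests called 0.0441% of all genes in CMs, 0.361% in ECs, 0.0686% in fibroblasts, 0.0661% in pericytes, 0.0928% in macrophages and 0.0394% over all nuclei. At an unadjusted p under 0.05 there were 2 axis genes in CMs (Igf1 and Igfbp3), 3 in ECs (H19, Igf1 and Igfbp4), 2 in fibroblasts (Igfbp3 and Igfbp4), 2 in pericytes (Igf1 and Igfbp3), 1 in macrophages (Igf1) and 2 over all nuclei (Igf1 and Igfbp3). Of all genes, 5.53% in CMs, 11.1% in ECs, 4.22% in fibroblasts, 3.62% in pericytes, 7.96% in macrophages and 9.51% over all nuclei had an unadjusted p under 0.05. DESeq2 called 0 axis genes in each of the 5 lineages and 1 over all nuclei. H19 had too few UMIs to be tested in pericytes and macrophages. With 2 libraries a group, the values below are given as measured and a missed threshold does not show that the groups were alike. Mitochondrial UMIs made up a median of 1.47 and 1.38% of a barcode's UMIs, over all barcodes, in the sham libraries and 0.654 and 0.535% in the RVVO libraries, and their part in the differences below was not tested.

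Igf1 in macrophages was at 51.1 and 55.9 CPM in sham and at 131 and 120 CPM in RVVO, a mean of 53.5 ± 3.38 (SD, n = 2) against 125 ± 7.71 (SD, n = 2). The groups did not overlap, and the fitted difference was 1.19 log2 units (SE 0.223, edgeR adjusted p = 0.238). The share of macrophages with an Igf1 UMI at 1000 UMIs was 5.51 and 5.72% in sham and 12.4 and 9.74% in RVVO. Fibroblast markers in the same nuclei summed to 708 and 726 CPM in sham and 1156 and 1296 CPM in RVVO. Igf1 per 1000 of these marker UMIs was 72.1 and 76.9 in sham and 112.8 and 92.3 in RVVO, on 430 to 1810 marker UMIs a library. The part of free RNA in the Igf1 difference was not tested. The 3 resident macrophage genes Lyve1, Timd4 and Folr2 summed to 394 and 331 CPM in sham and 229 and 246 CPM in RVVO, and the 4 MHC II genes Cd74, H2-Aa, H2-Ab1 and H2-Eb1 to 468 and 536 against 254 and 530 CPM; their part in the Igf1 difference was not tested.

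In fibroblasts, which held the larger share of Igf1, sham had 138 and 121 CPM and RVVO 192 and 141 CPM. The difference was 0.34 log2 units (SE 0.194, edgeR adjusted p = 1). Igf1 was also higher in both RVVO libraries in CMs (0.99, SE 0.309), ECs (0.71, SE 0.26) and pericytes (0.98, SE 0.302), with edgeR adjusted p = 0.838, 0.37 and 1. The 10 fibroblast markers were higher in both RVVO libraries in the same nuclei, at 489 and 400 CPM in sham and 661 and 680 in RVVO for CMs, 965 and 991 against 1329 and 1453 for ECs, and 1629 and 1789 against 1980 and 2134 for pericytes. Per 1000 of these marker UMIs Igf1 overlapped between the groups in CMs (15.1 and 14.0 against 26.4 and 14.8). It also overlapped in ECs (19.0 and 16.7 against 28.5 and 15.6). In pericytes it did not (7.92 and 9.80 against 15.2 and 14.2), on only 21, 30, 38 and 30 Igf1 UMIs. The part of the markers' source in the Igf1 differences was not tested. Whether the RVVO difference in Igf1 varied between lineages gave an unadjusted edgeR p of 0.0204 and an adjusted p of 0.535 in the interaction test, which called 0.0495% of all genes, and 0 axis genes by edgeR or DESeq2. An unadjusted p under 0.05 was reached by 7.65% of all genes in that test.

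For Igfbp3 the CPM of the lower RVVO library exceeded that of the higher sham library in each of the 5 main lineages, and edgeR called none of these differences. The 5 lineages come from the same 4 libraries, so here and for Igf1 they are not repeats of one another. The share of all genes with the groups apart in this way was not counted, here or for Igf1. The number of lineages with the groups apart is therefore given as a description only. In fibroblasts the values were 63.3 and 50.4 CPM in sham and 125 and 103 CPM in RVVO, means of 56.8 ± 9.11 and 114.0 ± 15.4 (SD, n = 2 each). The difference was 0.98 log2 units (SE 0.188, edgeR adjusted p = 0.375). With the replicate number as a block it was 0.97 (edgeR adjusted p = 0.0186), and without a filter on low counts the edgeR adjusted p was 1.02e-05. The replicate numbers were not taken to pair the libraries (correlation -0.0452 in fibroblasts). Over all genes, the fibroblast calls rose from 9 to 48 with that block and to 224 without the filter. The thinned share of fibroblasts with an Igfbp3 UMI was 6.03 and 4.18% in sham and 9.91 and 6.98% in RVVO (9.39 and 7.86% against 27.8 and 20.6% unthinned). Over all nuclei, where more fibroblasts and more Igfbp3 per fibroblast cannot be told apart, the difference was 0.80 (SE 0.139, edgeR adjusted p = 0.35), which DESeq2 called (0.80, adjusted p = 0.00407). Fibroblasts made up 7.22, 11.1, 11.6 and 14.4% of kept nuclei. Within fibroblasts the 10 fibroblast markers summed to 6998 and 7345 CPM in sham and 7320 and 8541 CPM in RVVO, groups that overlapped. In CMs, ECs, pericytes and macrophages both RVVO libraries had more of these markers than both sham libraries, with the values given for Igf1. Per 1000 of these marker UMIs Igfbp3 overlapped between the groups in ECs (20.1 and 18.2 against 24.9 and 15.9). It also overlapped in macrophages (16.3 and 16.9 against 18.2 and 14.9), on only 7 and 11 against 21 and 27 UMIs. The groups were apart in CMs (13.2 and 9.36 against 20.3 and 14.99) and pericytes (14.3 and 9.47 against 16.8 and 18.5). They were also apart in fibroblasts (9.04 and 6.86 against 17.1 and 12.1). The part of the markers' source in the Igfbp3 differences was not tested.

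Igf2 in ECs overlapped between the groups (0.36 log2 units, SE 0.225, edgeR adjusted p = 0.617). H19 in ECs was at 14.0 and 18.7 CPM in sham and 19.8 and 38.6 CPM in RVVO (0.74, SE 0.302, edgeR adjusted p = 0.428). RVVO 1 also lay above both sham values, and RVVO 2 set most of the size of the difference. The endocardial share of ECs was also higher in RVVO, as given above, and within endocardial nuclei the groups overlapped for both genes, with means of 149 and 153 CPM for Igf2 and 180 and 170.5 CPM for H19 in sham and RVVO. Igfbp4 in ECs was at 19.4 and 23.2 against 25.4 and 45.3 CPM (0.64, SE 0.257, edgeR adjusted p = 0.427), and in endocardial nuclei its groups overlapped as well. The part of the endocardial share in the H19 and Igfbp4 differences of ECs was not tested.

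No receptor was called in any lineage. Insr in CMs was at 865 and 930 CPM in sham and 728 and 836 CPM in RVVO, lower by -0.30 log2 units (SE 0.142, edgeR adjusted p = 0.917), while in macrophages it was at 300 and 340 against 402 and 350 CPM (0.20, SE 0.179, edgeR adjusted p = 0.826). The interaction test gave an edgeR adjusted p of 0.688 for Insr. Fitted differences of Igf1r lay between -0.17 in fibroblasts and 0.18 in macrophages, and those of Igf2r between -0.09 in pericytes and 0.16 in macrophages. Igfbp5 and Igfbp7 had differences of -0.23 to 0.32 and of -0.29 to 0.24 in the 5 lineages.

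**Figure D5:**
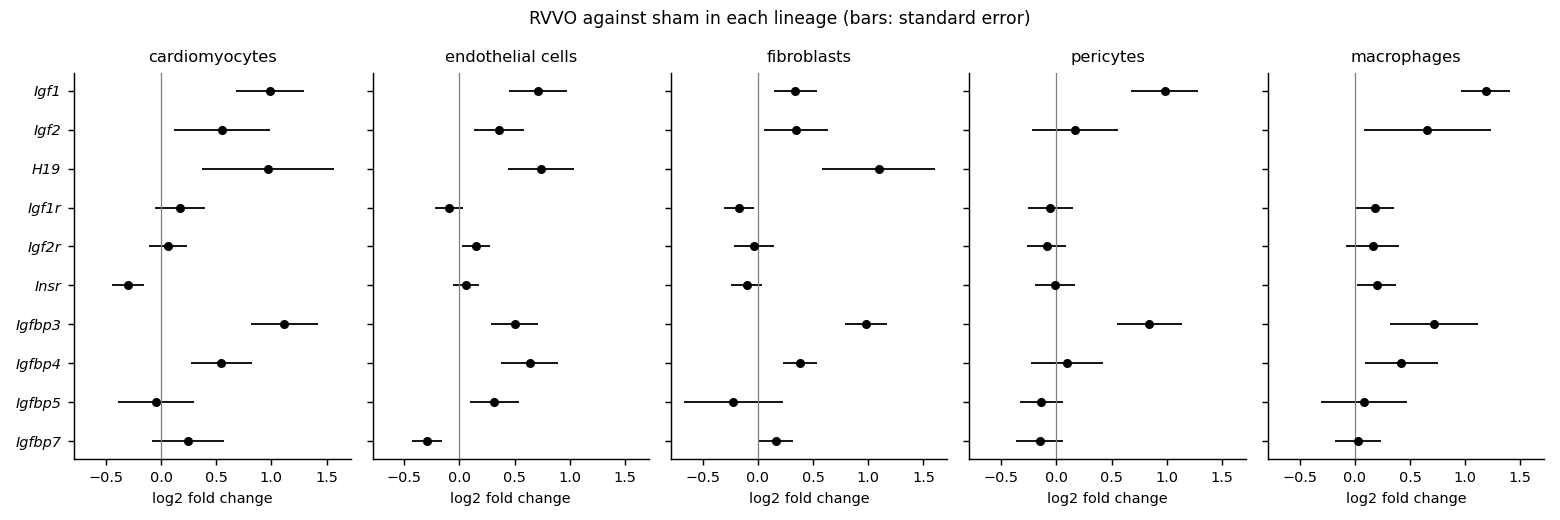
Fitted log2 fold change of RVVO against sham for each axis gene in 5 lineages, with bars of 1 standard error (2 libraries a group, H19 not tested in pericytes and macrophages). Igf1 and Igfbp3 lay to the right of 0 in every lineage, by 0.34 to 1.19 and by 0.50 to 1.12, and no edgeR adjusted p was under 0.05.

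None of the surrounding genes was called between RVVO and sham by edgeR in any of these comparisons, with 4 of 50 tested at an unadjusted p under 0.05 in CMs, 7 of 49 in ECs, 2 of 49 in fibroblasts, 0 of 46 in pericytes, 3 of 38 in macrophages and 5 of 56 over all nuclei, counts to be read against the shares of all genes at that p given for the axis genes. DESeq2 called Irs2 in CMs and over all nuclei, and Plagl1 and Igf2bp2 in ECs. In the interaction test edgeR called 0 of 49 surrounding genes, and 10 had an unadjusted p under 0.05, against 7.65% of all genes. DESeq2 called Irs2 and Ghr in that test, among 109 of all genes. Plagl1 in ECs came closest, at 23.1 and 24.6 CPM in sham and 44.3 and 56.1 CPM in RVVO (0.98, SE 0.151, edgeR adjusted p = 0.0672, with the replicate block 0.0458, and 0.00255 by DESeq2). The replicate numbers were not taken to pair the libraries, and over all genes the EC calls rose from 51 to 98 with that block. Within endocardial nuclei, which were a larger share of ECs in RVVO, Plagl1 was at 265, 245, 271 and 276 CPM. The part of the endocardial share in the Plagl1 difference of ECs was not tested. Irs2, an insulin receptor substrate, was at 76.5 and 202 CPM in sham CMs and 29.8 and 36.0 CPM in RVVO CMs (-2.19, SE 0.467, edgeR adjusted p = 0.775, and 0.000138 by DESeq2). The 2 sham libraries differed more from each other than the 2 RVVO libraries did.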

How the data were processed

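Nuclei of flash-frozen right ventricle were sequenced with the 10x Genomics 3′ chemistry. The deposited matrices hold UMI counts per gene and nucleus, not normalized, which the authors made with Cell Ranger (version 3.0.1 in the submitters' processing notes, 5.0.0 in the file headers) against GRCm38/mm10. The notes also name STAR and Seurat 3.0.2. Whether introns were counted is not stated in any source used here. The 10 members and all lists were chosen with earlier results of these data known.

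Barcodes were kept where 200 or more genes were detected and mitochondrial UMIs stayed below 10%. A nucleus was placed in a lineage when its marker UMIs per 10000 reached 25% of a reference (the mean of the 50 highest nuclei, median over libraries), with at least 3 marker UMIs from 2 markers. These thresholds were set after seeing the data. No doublet caller was run. UMI counts were summed per library and lineage and tested with edgeR 4.0.16 (quasi-likelihood, TMM, Benjamini-Hochberg) in R 4.3.3, with the library as a block between lineages and with the sham and RVVO libraries as groups otherwise. DESeq2 1.42.0, no filter on low counts, no library block, a replicate block, lineages from Leiden clusters (leidenalg 0.10.2), a common lowest UMI count of 1561, nuclei of several lineages kept, and each library left out in turn were alternatives. A crossed replicate block in pericytes and macrophages was added after seeing the data. For shares, each nucleus was thinned to 1000 UMIs and shallower ones were left out. The fits were tested on simulated data, with changes set only in genes of higher counts. That test does not cover the sparse sums of some members, and no result above rests on it.

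Sums over a lineage rested on 606989 to 38372505 UMIs in the 5 main lineages, and H19 had as few as 1 UMI in such a sum. Named genes were the 10 members, up to 5 called genes a list by size of difference, and 3 genes most like each member by Pearson r among those with at least 200 UMIs. Of these, the text gives a part. Samples with the same replicate number deviated together with correlations of 0.152 in CMs, -0.0211 in ECs, -0.0452 in fibroblasts, -0.321 in pericytes and -0.184 in macrophages, so the numbers were not taken to pair them.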

Additional observations from a re-analysis of the deposited data

How the results depend on the processing

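Of the 60 differences of axis genes between lineages or endothelial classes, 45 were called, and over 720 recomputed values 687 kept their direction and their side of the threshold, 14 lost the call, 11 gained one and 8 changed sign. The calls lost when 1 library was left out stand beside their values in the report. Without the library block the calls of Igfbp5 in ECs, Igf2 in fibroblasts and pericytes, and Igfbp3 and Igfbp4 in macrophages were lost, and with lineages from clusters those of Igf1 and Igf2 in pericytes, and the common lowest UMI count lost Igf2 in pericytes as well. Calls were gained for Igf1r in CMs (0.22 with no filter on low counts, 0.25 with lineages from clusters, and as given in the report without sham 1 or RVVO 1), for Igfbp5 in fibroblasts without sham 2 (-0.34), for H19 in pericytes without sham 1 (-1.17) and for Igf2 in macrophages with nuclei of several lineages kept (-0.59). Lineages from clusters also gained H19 (-0.77) and Igfbp5 (-0.77, edgeR adjusted p = 1.1e-05) in fibroblasts, Igfbp3 in pericytes (0.58) and Igf2 in macrophages (-0.55). The values that changed sign, none of them called in the report except Pappa, were as follows. With lineages from clusters Igfbp4 was at 0.014 in ECs and -0.052 in pericytes, Insr at 0.0063 in macrophages, Igf1 at 0.15 in endocardial nuclei and Pappa at 1.12 in pericytes (-0.70 otherwise, called both ways). With nuclei of several lineages kept, Igfbp5 in fibroblasts was at 0.29. Leaving out 1 library at a time, Igfbp3 in ECs ranged from -0.17 to 0.076, Igf1r in fibroblasts from -0.058 to 0.083 and Igfbp4 in pericytes from -0.16 to 0.29. The causes were not tested.

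For RVVO against sham, 1 axis gene was called in fibroblasts and 1 in macrophages with no filter on low counts (Igfbp3 and Igf1), 1 in fibroblasts with the replicate block (Igfbp3), and 1 over all nuclei with DESeq2 (Igfbp3). Counts over all genes moved more. Where edgeR called 7 genes in CMs, 51 in ECs, 9 in fibroblasts, 7 in pericytes, 9 in macrophages, 7 over all nuclei and 7 in the interaction test, DESeq2 called 74, 286, 36, 15, 21, 352 and 109. With no filter 224 genes were called in fibroblasts, 113 in pericytes, 232 in macrophages and 464 in the interaction test. With the replicate block 98 were called in ECs and 48 in fibroblasts, and with the crossed block 34 in pericytes and 35 in macrophages. The common lowest UMI count gave 32 in ECs. The interaction test gave 1 call without the library block and 28 with lineages from clusters. Leaving out 1 library gave 59 to 420 calls in ECs, 9 to 31 in fibroblasts and 8 to 45 in pericytes (the highest without sham 2 in each), 14 to 72 in macrophages (the highest without RVVO 1), 6 to 18 over all nuclei (the highest without sham 1) and 1 to 2 in the interaction test, with the lone library of a group assumed to vary like the others. The block changed the call of no other axis gene. Of the recomputed shares of nuclei, 58 stayed within 1 SD between libraries and 31 moved further, most of them with the depth of thinning.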

Other observations

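Smaller groups held a few more values of the axis, on too few nuclei for a test. The 86 adipocyte nuclei, none of them in sham 1, had 908, 296 and 726 CPM of Insr in sham 2, RVVO 1 and RVVO 2. The 213 smooth muscle nuclei had 451 to 534 CPM of Insr, above the capillary nuclei in every library, and 126 to 216.6 CPM of Igfbp5. The 387 arterial nuclei had 12.6 to 21.1 CPM of Igf2 and 0 to 12.6 CPM of H19, and the 150 venous nuclei had 238 to 467.5 CPM of Igfbp5. Nuclei that could not be placed had 38.2, 55.4, 82.7 and 60.5 CPM of Igf1.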
